A study of Mus musculus with 4 samples.

Results

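The 31 genes described here encode the enzymes, carriers and regulators that make fatty acids and store them as triglyceride. They were chosen by symbol, with earlier results of these data known, and each of the 31 was found once among the 21899 rows of a protein-coding expression table. The tissue was mouse subcutaneous white adipose tissue, profiled by RNA sequencing in 4 libraries. By their titles, 2 libraries came from treatment with an inhibitor of miR-203 and 2 from a negative control. RNA of 3 animals went into each library, so 6 animals stand behind each group mean and the spread between libraries is one between pools. The sources used here do not give strain, genotype, sex, age, dose, route or duration of treatment. The question in the series title is a network of cAMP, miR-203 and IFNγ in fat browning, the appearance of heat-producing adipocytes, and in glucose handling.

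White adipocytes make fatty acids from citrate that leaves the mitochondria. ATP citrate lyase cleaves it to acetyl-CoA, acetyl-CoA carboxylase turns that into malonyl-CoA, and fatty acid synthase builds palmitate from both with electrons from NADPH. Desaturases place double bonds in the product, acyl-CoA synthetases activate fatty acids, and a chain of acyltransferases and a phosphatase attaches them to glycerol. In fat the program is driven by insulin and glucose through SREBP1 and ChREBP, and cold and adrenergic signals raise it in heat-producing adipocytes. A microRNA recognises its targets mainly through its seed, bases 2 to 8, and represses them, and an inhibitor is made to block it. The mature strands of mouse miR-203 (RefSeq, GRCm38.p6, chromosome 12) are shown because 1 of them is what the inhibitor is aimed at, with the seed in capitals. The titles do not say which.
mmu-miR-203-5p: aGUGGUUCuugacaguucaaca
mmu-miR-203-3p: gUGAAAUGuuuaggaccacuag

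The values are FPKM, fragment numbers scaled by transcript length and library size. This puts genes and libraries on a common scale, but each value is relative to the rest of its library. A shift in abundant transcripts moves the values of all others. Absolute depth is unknown. The libraries had 15373 to 15587 rows above 0. Control 2 stood apart from the other libraries in markers of B cells and lymph node, whose 10 genes summed to 4.23 FPKM there, to 381 FPKM in control 1, and to 166 and 191 FPKM in the inhibitor libraries. Genes of mitochondrial DNA took 14.4% and 17.5% of all FPKM in the controls against 10.2% and 12.1% in the inhibitor libraries. The fat markers Adipoq and Fabp4 were abundant, at 1255 and 1303 FPKM and 12522 and 12715 FPKM in the controls, as the tissue label implies. Of 12 epithelial and mammary markers, which stand for another lipid-making tissue that can lie in this fat pad, 0 reached a mean of 1 FPKM. Their sum was 2.76 to 3.77 FPKM in the controls and 1.49 to 2.31 in the inhibitor libraries, and Krt8, Wap, Csn2 and Csn3 were listed at 0 in all 4.

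Most genes of fatty acid and triglyceride synthesis had lower values in the inhibitor libraries, but none passed the test across all genes. Both inhibitor values lay below both control values in 22 of the 31, against 19.1% of the 12345 genes tested, and above both in 3, against 33.1%. The groups overlapped in 6. Log2 fold changes were negative in 28 of the 31 (in 20 when the libraries were scaled to adipocyte markers, as described further on), with a median of -0.36, while 40.0% of all genes tested were negative and their median was 0.07. With limma, 0 of the 31 were called lower and 0 higher at an adjusted p under 0.05, against 0.267% and 3.22% of all genes tested. At an unadjusted p under 0.05, 14 were lower and 1 higher, against 5.95% and 13.4% of all genes. The 14 became 0 with scaling to adipocyte markers, against 0.648% of all genes. With 1 library left out, the members' median log2 fold change was -0.52 without control 1 and -0.24 without control 2. It was -0.37 without inhibitor 1 and -0.37 without inhibitor 2. The smallest adjusted p was 0.0610, for Agpat2. An exact permutation test of 2 against 2 libraries cannot go below a two-sided p of 0.333, so no gene could pass that way.

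These calls depended on which control was used. Without control 1, which set control 2 alone against the inhibitor libraries, 12 of the 31 were called lower, against 0.794% of all genes. They were Fasn, Acaca, Acacb, Acly, Slc25a1, Thrsp, Scd1, Agpat2, Dgat2, Me1, Pgd and Tkt, and the median log2 fold change became -0.52. In that fit the lone control is assumed to vary as the inhibitor libraries did. Without control 2, 0 of the 31 were called, 24 were negative and the median was -0.24. Some settings with all 4 libraries also brought a few over the threshold. A filter at a mean of 5 FPKM called 2 of the 29 members left (Agpat2 and Lpin1), against 0.72% of all genes. Quantile normalization called 3 (those and Fasn), against 0.745%, and scaling without the genes of mitochondrial DNA called 1 (Agpat2), against 0.437%.

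**Figure D1:**
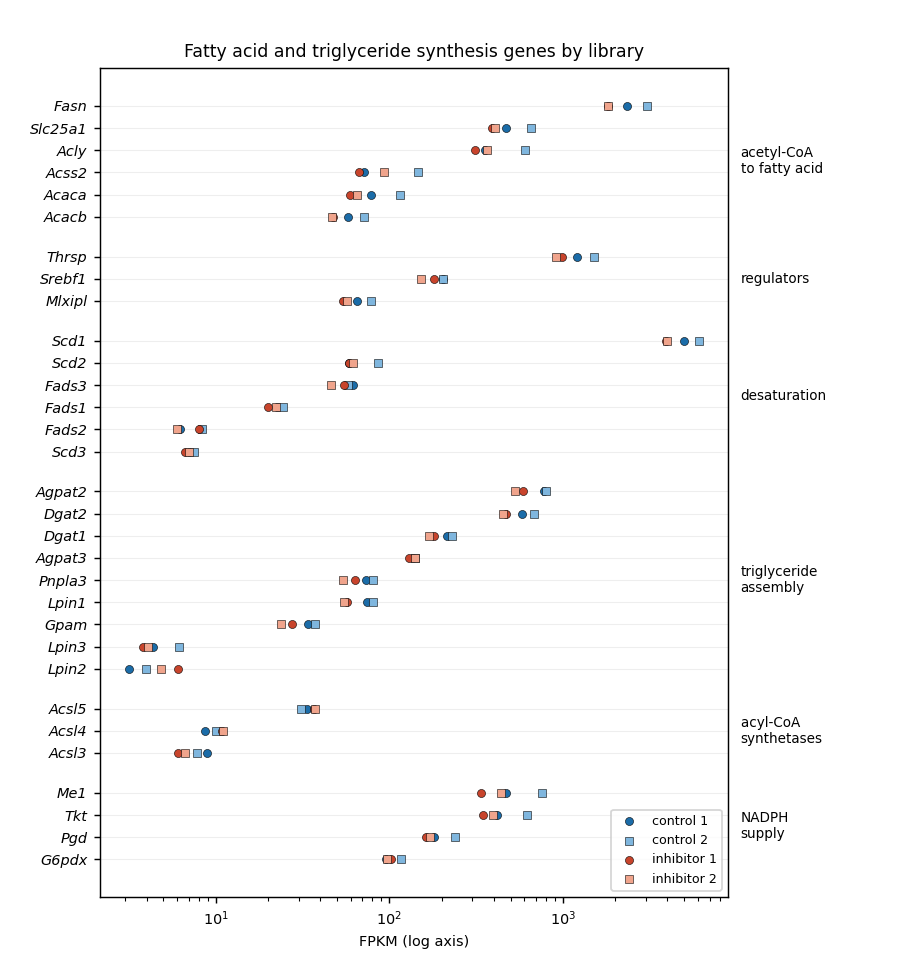
Level of each of the 31 genes in each library, in FPKM on a log axis, grouped by role and sorted by mean level within a role. Circles are replicate 1 and squares replicate 2, in blue for control and red for inhibitor. Levels run from 3.15 FPKM (Lpin2, control 1) to 6114 FPKM (Scd1, control 2), and in 22 genes both red points lie to the left of both blue points.

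As a group these are among the abundant transcripts of the tissue. The 31 genes took 2.21% of all FPKM in control 1, 2.73% in control 2, 1.80% in inhibitor 1 and 1.80% in inhibitor 2. Scd1 ranked 10 by mean level among the 21899 rows, Fasn 26, Thrsp 50 and Agpat2 100. Lpin2 was the lowest of the 31, at rank 9489.

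The enzymes that turn citrate and acetate into fatty acid came first in the path and were lower in the inhibitor libraries in 4 of 6 genes without overlap, against 19.1% of all genes tested. Their median log2 fold change was -0.47. Fasn, which encodes fatty acid synthase at chr11:120805846-120824547 on the minus strand of GRCm38, had 2351 and 3068 FPKM in the controls against 1826 and 1821 in inhibitor 1 and inhibitor 2. Both inhibitor values were lower than both controls and differed from each other by less than the controls did. The means were 2709 ± 507 and 1824 ± 3.63 FPKM (SD, n = 2), and limma gave a log2 fold change of -0.56 ± 0.15 (SE, 95% interval -0.93 to -0.18, adjusted p = 0.130).

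Acaca and Acacb encode the 2 acetyl-CoA carboxylases, of which the product of Acacb sits at the mitochondrion, where its malonyl-CoA restrains fatty acid entry. Acaca had 78.5 and 116 FPKM in the controls against 59.5 and 64.8 in the inhibitor libraries (log2 fold change -0.61 ± 0.19, adjusted p = 0.179). Acacb had 58.0 and 71.2 against 47.1 and 46.6 FPKM (-0.45 ± 0.12, adjusted p = 0.136). Neither overlapped between groups, and in both control 2 was the highest library. Of the distinct 50-base words of the longest Acaca transcript 52.6% also occur in a transcript of Gm5182, so some Acaca reads could have been shared, and its separate level is uncertain.

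Slc25a1, the carrier that brings citrate out of the mitochondrion, had 469 and 655 FPKM in the controls against 389.8 and 406 in the inhibitor libraries (log2 fold change -0.48 ± 0.17, adjusted p = 0.214). Acly, ATP citrate lyase, had 358 and 606 FPKM in the controls against 311 and 365 in the inhibitor libraries. Inhibitor 2 lay above control 1, so the groups overlapped, and the fold change of -0.47 ± 0.26 came with an interval of -1.11 to 0.18 (adjusted p = 0.389). Acss2, which makes acetyl-CoA from acetate, was the least settled of the 6, with 71.4 and 146 FPKM in the controls against 66.8 and 93.8 in the inhibitor libraries. Its controls differed 2.04-fold, its interval ran from -1.26 to 0.54, and its log2 fold change of -0.36 became 0.15 without control 2. It shares 395 exonic bases with Gss, 335 with Acss2os and 197 with Ggt7, all on the other strand.

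Some promoters of lipid synthesis genes are known for boxes that bind NF-Y, Sp1 and SREBP1 side by side. The RefSeq promoter windows (GRCm38.p6, 250 bases before to 50 after the start) were therefore searched for 4 short motifs on both strands. These were CCAAT (NF-Y), GGGCGG (the GC box of Sp1), CACGTG (an E-box) and CACCCCAC (a core of the sterol response element). Windows were held for 26 of the 31 genes, 35 windows in all, and not for Scd1, Scd2, Fads1, Dgat1 and Dgat2. CCAAT occurred in 48.6% of the members' windows and in 37.4% of all 32851 windows, GGGCGG in 57.1% and 35.7%, CACGTG in 11.4% and 7.15%, and CACCCCAC in 5.71% and 2.87%. The 32851 windows were not limited to the genes tested here, while all 31 members were tested, and the shares among tested genes were not compared. A match is a description of letters, not a measured binding site. Windows of 2 synthesis genes, of Agpat2, which had the smallest p, and of Lpin2, which went the other way, are shown with the matches in capitals. Matches on the other strand read ATTGG for CCAAT and CCGCCC for GGGCGG. Fasn holds 3 CCAAT matches, of which 2 overlap, and 0 matches to the other motifs. Slc25a1 holds 2 CCAAT matches, with 4 GC boxes and an E-box. Lpin2 has 3 windows, of which the one with the E-box is printed and another holds 3 CCAAT matches.
Fasn, chr11:120824498-120824797, minus strand: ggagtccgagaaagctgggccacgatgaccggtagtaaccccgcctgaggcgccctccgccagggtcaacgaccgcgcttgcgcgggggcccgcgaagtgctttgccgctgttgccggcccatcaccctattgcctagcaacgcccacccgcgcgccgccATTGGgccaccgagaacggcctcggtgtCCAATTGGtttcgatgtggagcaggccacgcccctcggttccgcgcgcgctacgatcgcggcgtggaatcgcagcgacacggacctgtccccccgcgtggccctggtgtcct
Slc25a1, chr16:17928170-17928469, minus strand: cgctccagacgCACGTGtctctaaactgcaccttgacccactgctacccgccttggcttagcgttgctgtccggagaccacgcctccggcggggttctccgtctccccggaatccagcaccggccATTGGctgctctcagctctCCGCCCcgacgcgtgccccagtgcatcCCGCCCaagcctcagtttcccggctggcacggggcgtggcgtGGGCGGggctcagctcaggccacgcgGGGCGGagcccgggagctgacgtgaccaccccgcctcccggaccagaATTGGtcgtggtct
Agpat2, chr2:26604368-26604667, minus strand: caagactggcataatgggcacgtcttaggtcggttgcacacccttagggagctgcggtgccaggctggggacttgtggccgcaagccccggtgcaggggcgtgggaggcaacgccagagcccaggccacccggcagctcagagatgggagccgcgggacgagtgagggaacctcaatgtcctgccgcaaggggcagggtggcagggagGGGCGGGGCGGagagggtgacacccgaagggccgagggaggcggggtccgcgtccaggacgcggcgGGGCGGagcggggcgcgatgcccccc
Lpin2, chr17:71183282-71183581, plus strand: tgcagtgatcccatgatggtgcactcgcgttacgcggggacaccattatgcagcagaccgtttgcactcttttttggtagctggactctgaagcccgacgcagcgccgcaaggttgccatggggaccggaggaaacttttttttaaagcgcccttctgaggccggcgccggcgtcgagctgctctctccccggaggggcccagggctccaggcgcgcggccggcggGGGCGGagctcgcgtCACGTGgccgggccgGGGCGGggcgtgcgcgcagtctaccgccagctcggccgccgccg

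The regulators of the program were each lower in the inhibitor libraries with no overlap, 3 of 3 genes against 19.1% of all genes tested, although the fold change of Srebf1 became 0.0165 with scaling to adipocyte markers. Thrsp encodes Spot 14, a nuclear and cytosolic protein that raises lipid synthesis, and had 1212 and 1504 FPKM in the controls against 994 and 915 in the inhibitor libraries (log2 fold change -0.50 ± 0.13, adjusted p = 0.128). Mlxipl, which encodes ChREBP, the factor that answers to glucose, had 65.3 and 78.6 against 54.4 and 57.0 FPKM (-0.36 ± 0.12, adjusted p = 0.191). Srebf1, which encodes SREBP1, had 204 and 203 FPKM in the controls, which differed by less than 1 FPKM, against 181 and 152 in the inhibitor libraries (-0.29 ± 0.11, adjusted p = 0.228). An mRNA level does not show the activity of SREBP1 or ChREBP, which are controlled after translation.

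**Figure D2:**
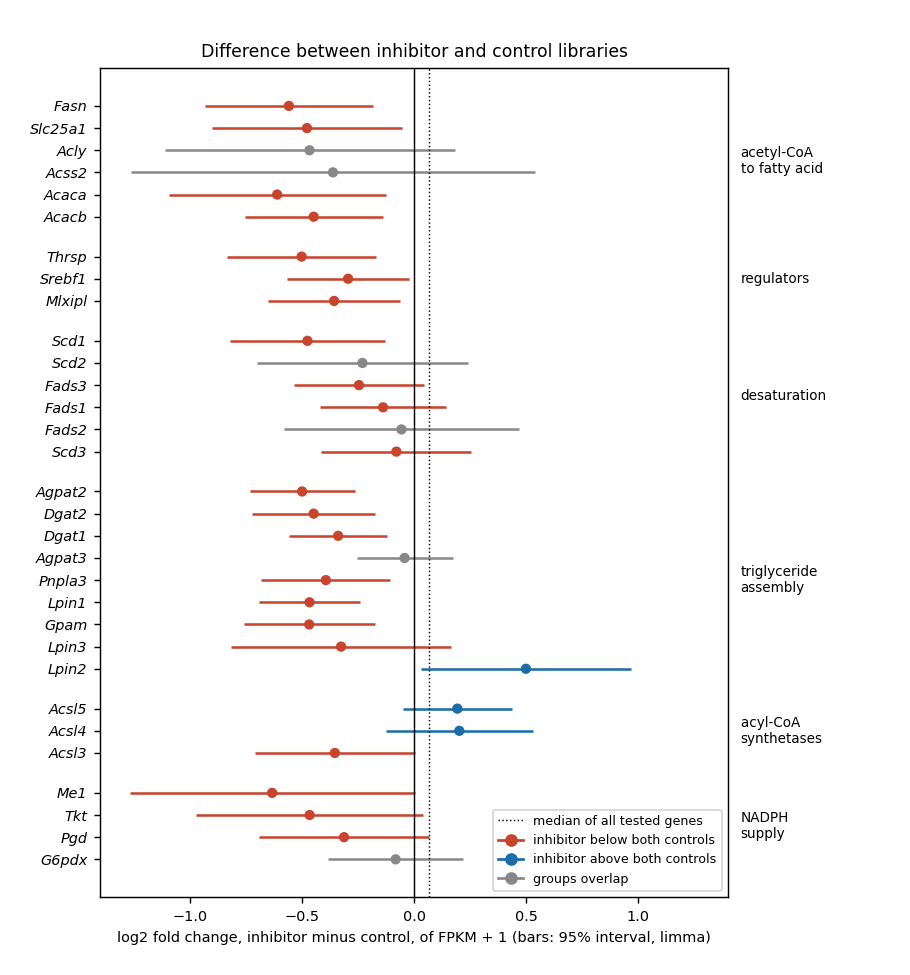
Log2 fold change of each gene, inhibitor minus control, on the log2(FPKM + 1) scale, with the unadjusted 95% interval of limma. Red marks genes with both inhibitor values below both controls (22), blue those above both (3), and grey those that overlap (6). Lpin2, Acsl4 and Acsl5 are the 3 on the right, 8 of the 28 on the left turn positive with scaling to adipocyte markers, and the dotted line is the median of all 12345 genes tested, 0.07.

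The desaturases had a median log2 fold change of -0.18, which became 0.12 with scaling to adipocyte markers, where Scd1 alone of the 6 kept its sign. Scd1, at chr19:44394455-44407879 on the minus strand, encodes the stearoyl-CoA desaturase that makes oleate in fat, and had 4959 and 6114 FPKM in the controls against 3919.8 and 4001 in the inhibitor libraries. Both inhibitor libraries were lower than both controls, at means of 5537 ± 817 and 3960.4 ± 57.5 FPKM (SD, n = 2), with a log2 fold change of -0.48 ± 0.14 and an adjusted p of 0.152 in limma. Scd2, the form of brain and immature tissue, had 58.8 and 85.7 FPKM in the controls against 58.8 and 62.0 in the inhibitor libraries, with inhibitor 1 level with control 1, and its fold change of -0.23 became 0.04 without control 2. Scd3, a form of skin, had 6.64 to 7.52 FPKM in all 4 libraries. Scd1 made up 98.3% to 98.7% of the summed FPKM of the 3 Scd genes in each library. The Scd transcripts share 4.01% to 6.66% of their 50-base words with other genes, mostly each other, so the low level of Scd3 beside Scd1 is uncertain.

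Fads1 and Fads2 make the double bonds of long polyunsaturated fatty acids, and Fads3 is their relative in the same gene cluster on chromosome 19. Fads3 had 61.4 and 58.2 FPKM in the controls against 54.8 and 46.1 in the inhibitor libraries (log2 fold change -0.25 ± 0.11, adjusted p = 0.323). Fads1 had 22.4 and 24.4 against 20.1 and 22.3 FPKM, a fold change of -0.14 ± 0.11 on the log2 scale. Fads2 had 6.25 and 8.37 against 8.04 and 5.95 FPKM and overlapped, with an interval of -0.58 to 0.47. The 3 Fads genes thus gave no call, and the intervals of all 3 include changes in both directions.

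Triglyceride assembly held the members with the smallest p. Of 9 genes 7 had both inhibitor values below both controls and 1 above, against 19.1% and 33.1% of all genes tested, and the median log2 fold change was -0.39. Agpat2, at chr2:26593057-26604417 on the minus strand, adds the second fatty acid to the glycerol backbone, and people and mice that lack it have almost no fat. It had 783 and 803 FPKM in the controls against 592 and 531 in the inhibitor libraries. The controls were nearly equal and both inhibitor values were lower, with means of 793 ± 14.0 and 561 ± 42.5 FPKM (SD, n = 2), and a log2 fold change of -0.50 ± 0.09 (95% interval -0.73 to -0.26, adjusted p = 0.0610). It shares 64 exonic bases with Egfl7 on the other strand, and the sources used here do not say whether counting used the strand. Agpat3, a relative with the same activity, had 137 and 141 FPKM in the controls against 130.1 and 140.3 in the inhibitor libraries, with a fold change of -0.04 (0.27 with scaling to adipocyte markers) and an interval of -0.26 to 0.17. Agpat3 made up 14.9% and 15.0% of the summed FPKM of both genes in the controls against 18.0% and 20.9% in the inhibitor libraries.

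Gpam, the mitochondrial enzyme that adds the first fatty acid, had 34.2 and 37.3 FPKM in the controls against 27.4 and 23.8 in the inhibitor libraries (log2 fold change -0.47 ± 0.12, adjusted p = 0.113). Dgat2, which completes triglyceride and works closely with new fatty acid, had 579.9 and 682 against 473 and 449 FPKM (-0.45 ± 0.11, adjusted p = 0.111). Dgat1, the other acyltransferase of this last step, had 214 and 228 against 181 and 169 FPKM (-0.34 ± 0.09, adjusted p = 0.120). In these 3 genes the groups did not overlap. Dgat2 made up 72.4% to 74.9% of both Dgat genes in every library, so the balance between them moved little. Pnpla3, a lipid droplet protein that follows the lipogenic program, had 73.8 and 80.6 FPKM in the controls against 63.4 and 54.0 with the inhibitor (-0.39 ± 0.11, adjusted p = 0.155). It shares 105 exonic bases, 6.78% of its exons, with Gm49513 on the same strand.

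The lipins remove phosphate from phosphatidate, the step before the last acylation, and the values of their 3 genes differed in direction. Lpin1, the main form of fat, at chr12:16535669-16610966 on the minus strand, had 74.6 and 80.3 FPKM in the controls against 56.8 and 54.7 in the inhibitor libraries. Both inhibitor values were lower than both controls, and the log2 fold change was -0.47 ± 0.09 (95% interval -0.69 to -0.24, adjusted p = 0.0647). Lpin3 had 4.35 and 6.16 against 3.83 and 4.05 FPKM, a fold change of -0.33 ± 0.19 with an interval of -0.82 to 0.16. Lpin2, best known from liver and macrophages, at chr17:71182560-71249817 on the plus strand, had 3.15 and 3.98 FPKM in the controls against 6.07 and 4.84 in the inhibitor libraries, the reverse order. Its log2 fold change was 0.50 ± 0.19 (95% interval 0.03 to 0.97, adjusted p = 0.235), and 0.60 with a pseudocount of 0.1 in place of 1. Lpin2 made up 3.84% and 4.40% of the summed lipin FPKM in the controls against 9.10% and 7.60% in the inhibitor libraries. This share is a ratio within a library, which scaling a whole library by a common factor does not change, and the groups did not overlap in it. It also rises when Lpin1, the most abundant of the 3, is lower, so it does not show a rise of Lpin2 on its own.

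**Figure D3:**
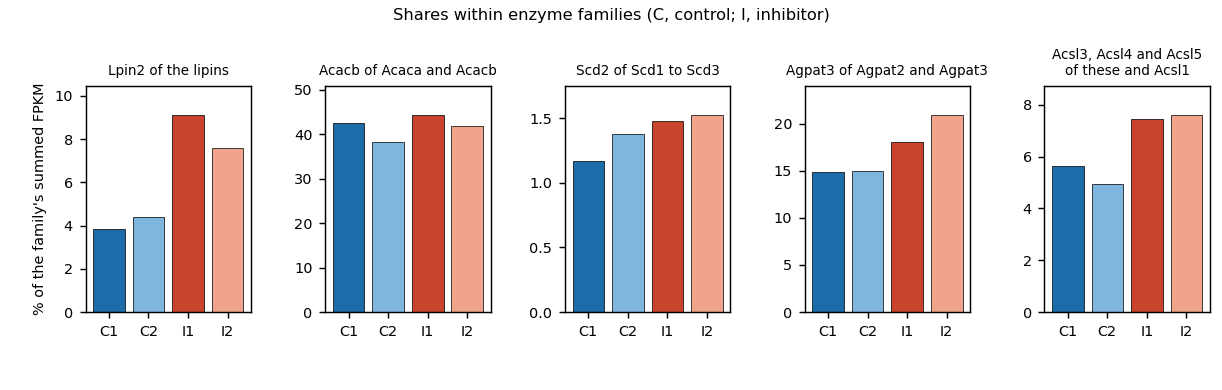
Share of the named gene in the summed FPKM of its enzyme family, in percent, with 1 bar for each library (C1 and C2, controls; I1 and I2, inhibitor). The shares of Lpin2, of Agpat3, of Scd2 and of the 3 minor Acsl genes are higher in both inhibitor libraries than in both controls, and that of Acacb overlaps.

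Among the acyl-CoA synthetases, which activate fatty acids for every later use, the 3 members differed in direction. Acsl3, a form of the endoplasmic reticulum and lipid droplets, had 8.96 and 7.85 FPKM in the controls against 6.07 and 6.65 in the inhibitor libraries (log2 fold change -0.35 ± 0.14, adjusted p = 0.264). Acsl4, which prefers arachidonate, had 8.72 and 10.1 against 10.8 and 11.01 FPKM (0.20 ± 0.13, adjusted p = 0.453), and Acsl5, best known from intestine and liver, had 33.8 and 30.98 against 36.8 and 37.5 FPKM (0.19 ± 0.10, adjusted p = 0.351). In the last pair both inhibitor values were above both controls. Acsl1, the main form of fat and a gene outside the 31, had 862 and 942 FPKM in the controls against 667 and 671 with the inhibitor, at an adjusted p of 0.0777. Acsl3, Acsl4 and Acsl5 together made up 5.63% and 4.93% of the summed FPKM of these 4 genes in the controls against 7.45% and 7.60% in the inhibitor libraries. Acsl3 shares 244 exonic bases with Utp14b on the same strand, and Acsl5 shares 404 with Zdhhc6 on the other, so part of their reads may belong to those genes.

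Since miR-203 pairs with 3' untranslated regions, the longest annotated one of each gene (GENCODE M21, GRCm38) was searched for CATTTCA, the match to the seed of miR-203-3p. A match was found in 3 of the 31 genes (9.68%), against 16.8% of the 12178 genes tested that had such a region. The 3 were Lpin1, Lpin2 and Acsl4, and 29-base windows around each match are shown, with the match in capitals.
Lpin1: tgggtaccataCATTTCAaagttgctcat
Lpin2: tgtccttgcctCATTTCAgtattgcagtt
Acsl4: tcagtagtgtgCATTTCAgagagcctttc

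Lpin2 and Acsl4 were 2 of the 3 members with higher values in the inhibitor libraries, and Lpin1 was among those with lower values, so a match did not go with 1 direction. None of the 3 passed the test. The median length of the regions searched was 1328 bases in the members and 1152.5 in all genes tested. The letters alone do not show that miR-203 acts on any of these RNAs.

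NADPH for the synthase comes from malic enzyme and the pentose phosphate path. Me1, malic enzyme, had 473 and 758 FPKM in the controls against 338 and 440.1 in the inhibitor libraries, a log2 fold change of -0.63 ± 0.25 (95% interval -1.27 to 0.00257, adjusted p = 0.260). This was the most negative of the 31 log2 fold changes, and control 2 had 1.602 times the level of control 1. Of its 50-base words 26.5% occur in other genes, mostly Gm7049, so its level is uncertain. Pgd, which makes NADPH in the second oxidative step, had 180.2 and 239.5 against 162 and 173 FPKM (-0.31 ± 0.15, adjusted p = 0.337). Tkt, transketolase of the branch that recycles the pentoses, had 418 and 621 against 345 and 393 FPKM (-0.47 ± 0.20, adjusted p = 0.292). G6pdx, which encodes the first and rate-setting enzyme of the path, stood apart with 95.3 and 116 FPKM in the controls against 102 and 97.2 in the inhibitor libraries. The groups overlapped, the interval was -0.38 to 0.22, and the fold change of -0.08 became 0.06 without control 2. G6pdx shares 418 exonic bases, 13.6% of its exons, with Ikbkg on the other strand, and 7.645% of its 50-base words with G6pd2.

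The 2 controls differed from each other in these genes, and most in synthesis and NADPH supply. Control 2 was above control 1 in 27 of the 31, with a median log2 difference of 0.26, while 42.5% of all genes tested were higher in control 2 and their median was -0.04. The median was 0.52 for the 6 synthesis genes and 0.49 for the 4 NADPH genes. It was 0.26 for the regulators, 0.21 for the desaturases, 0.12 for triglyceride assembly and -0.12 for the acyl-CoA synthetases. Acss2, Acly and Me1 were highest, at 2.04, 1.69 and 1.602 times control 1, Agpat2 and Srebf1 stood at 1.03 and 0.998 times, and Acsl3 was lowest, at 0.877 times. The inhibitor libraries were closer, with a median log2 difference of 0.03 over the 31, and Acss2, Me1 and Fads2 stood at 1.404, 1.30 and 0.740 times inhibitor 1 in inhibitor 2. Agpat2 and Lpin1, with closer controls, had smaller errors and smaller p than Acaca and Me1, whose fold changes were larger. Control 2 was also the library with low lymph node markers, and whether the 2 features go together was not tested.

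**Figure D4:**
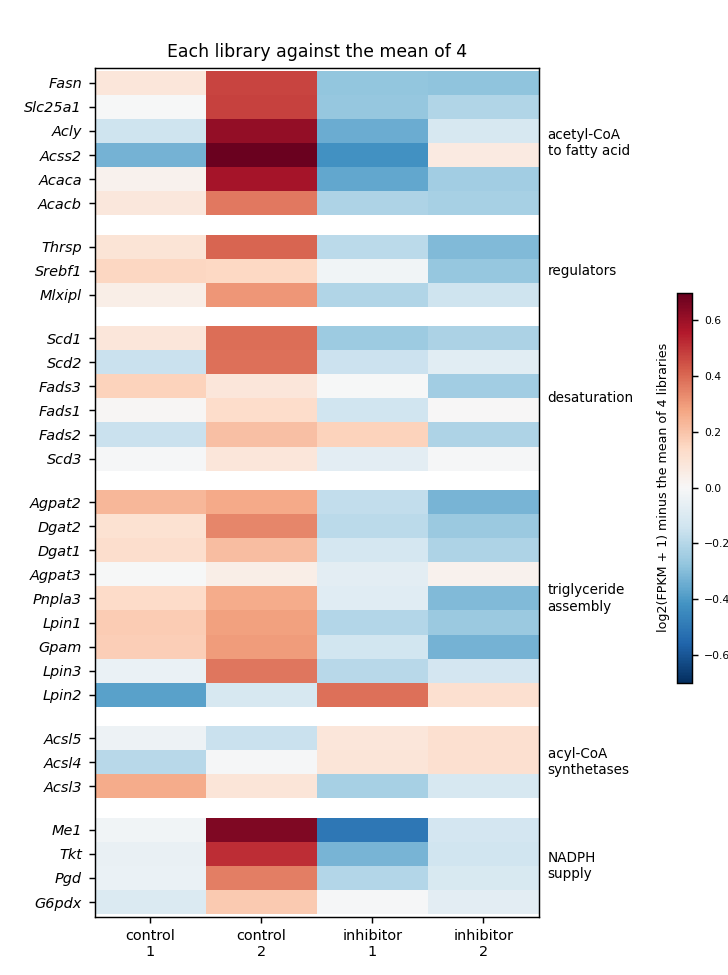
Log2(FPKM + 1) of each gene in each library minus its mean over the 4 libraries, from blue (lower) to red (higher), with genes grouped by role. Control 2 holds the strongest reds, in Acss2, Me1, Acly and Acaca, control 1 lies between it and the inhibitor libraries for most genes, and Lpin2 runs the other way.

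Markers of fat cells were lower as well. Of 12 adipocyte markers 11 had both inhibitor values below both controls and 0 above both, against 19.1% and 33.1% of all genes tested. Their median log2 fold change was -0.34, close to the -0.36 of the 31 genes, and 0 passed the test. Their summed level was 32908 and 33995 FPKM in the controls against 27754 and 25464 in the inhibitor libraries, and 0 of the 12 were at 0. The 1 marker that overlapped was Pparg. Their levels in control 2 ran from 0.823 times those in control 1, for Lep, to 1.18 times, for Retn. In bulk tissue, fewer adipocytes and less of these RNAs per adipocyte cannot be told apart. When the libraries were scaled to the geometric mean of the 12 markers, a step added after the values were seen, the members' median was -0.07, 20 of 31 were negative and 0 were called lower. On that scale Lpin2 and Acsl5 were called higher, 2 of 31 against 18% of all genes, whose median moved from 0.07 to 0.34.

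Markers of brown and beige fat, in which lipid synthesis is also active, were further down. Of 10 such markers 7 fell in limma at an adjusted p under 0.05 and 0 rose, against 0.267% and 3.22% of all genes tested. Their median log2 fold change was -0.98, and their sum was 1488 to 1599 FPKM in the controls and 684 to 752 in the inhibitor libraries. Of 12 interferon-induced genes, listed because they were known to be high here, 12 rose, and their sum was 440.4 to 562 FPKM in the controls and 2019 to 2181 in the inhibitor libraries. Of 10 macrophage markers 2 rose and 1 fell, at sums of 1695 to 1812 and 1780.2 to 1932 FPKM. Both inhibitor values lay above both controls in 4 of the 10 and below both in 4, against 33.1% and 19.1% of all genes tested. Of 8 markers of fibroblasts and preadipocytes and 6 of endothelium 0 passed, with median log2 fold changes of -0.05 and -0.09. Of 9 B cell and lymph node markers tested 0 passed. The 10 genes of that list summed to 381 and 4.23 FPKM in the controls against 166 and 191 in the inhibitor libraries. With controls this far apart, the test could not show whether these markers changed. Of 3 skeletal muscle markers tested 0 passed, at summed levels of 36.1 to 46.8 FPKM over the 4 libraries. The part of each in the values of the 31 genes was not tested.

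**Figure D5:**
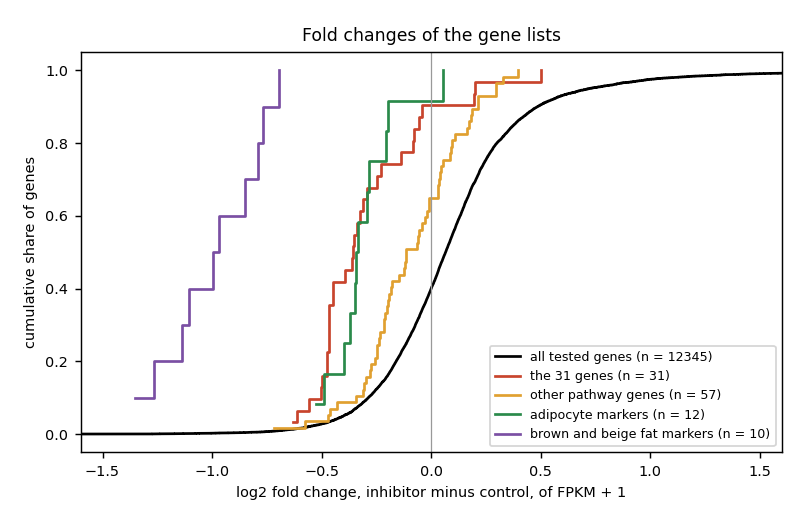
Cumulative share of genes by log2 fold change, inhibitor minus control, for all genes tested, the 31 genes, other pathway genes, adipocyte markers and brown and beige fat markers. The curve of the 31 genes runs near that of the adipocyte markers, with medians of -0.36 and -0.34, left of all genes (0.07) and right of brown and beige fat (-0.98).

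The other genes of the pathway, in 4 further lists, had a median log2 fold change nearer to 0. Of 57 tested, out of 64 listed, 0 were called in either direction with limma, and at an unadjusted p under 0.05, 10 were lower and 2 higher, against 5.95% and 13.4% of all genes tested. Both inhibitor values lay below both controls in 25 and above both in 12, against 19.1% and 33.1%, and the median was -0.11. By list the median was -0.21 for synthesis, elongation and desaturation, -0.15 for activation and assembly, -0.11 for NADPH supply and 0.03 for upstream regulators. Among 15 further genes of synthesis, elongation and desaturation the smallest p belonged to Hacd2, Mecr, Elovl1 and Tecr. Hacd2, a dehydratase of elongation, had 60.6 and 64.0 FPKM in the controls against 45.8 and 43.5 in the inhibitor libraries (log2 fold change -0.47 ± 0.09, adjusted p = 0.0638). Mecr, the last enzyme of mitochondrial fatty acid synthesis, and Tecr, the last of elongation, had log2 fold changes of -0.46 and -0.34, and Elovl1, an elongase of very long chains, 0.33. Among 12 further genes of activation and assembly Acsl1, Agpat6, Dbi and Fitm2 came first, with log2 fold changes of -0.43, -0.31, -0.31 and -0.23. Agpat6 is a glycerol phosphate acyltransferase, Dbi encodes the acyl-CoA binding protein, and Fitm2 serves droplet formation.

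Genes that feed NADPH or pentose phosphates outside the 31 were mixed, with a median of -0.11 over 11. Rpia, which isomerises ribose phosphate, had 13.9 and 13.9 FPKM in the controls against 18.9 and 18.2 in the inhibitor libraries (log2 fold change 0.39 ± 0.10, adjusted p = 0.130), the reverse of Tkt and Pgd. H6pd, the counterpart of G6pdx in the endoplasmic reticulum, Me3, a mitochondrial malic enzyme, and Aldh1l1, a folate enzyme that yields NADPH, had log2 fold changes of -0.30, -0.58 and -0.28. Me3 lay close to the filter of 1 FPKM, with 1.92 and 1.63 FPKM in the controls against 0.640 and 1.10 in the inhibitor libraries. The 19 upstream regulators had a median of 0.03. Both inhibitor values lay below both controls in 6 and above both in 5, against 19.1% and 33.1% of all genes tested. Cebpa, a factor of fat cell differentiation, Rxra, the partner of nuclear receptors, Mlx, the partner of ChREBP, and Insig2, which holds SREBP back, had the smallest p, with log2 fold changes of -0.27, -0.25, 0.19 and 0.18. Pparg, the main regulator of fat cells, had 103 and 118 against 114 and 115 FPKM (log2 fold change 0.05, 95% interval -0.20 to 0.31), and its groups overlapped.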

How the data were processed

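Trizol RNA from frozen fat was turned into strand-marked NEBNext libraries, per the labels' protocols. The submitters' processing notes name TopHat2 2.0.11, Cufflinks 2.1.1 and mm10. The sources used here give neither their settings nor the annotation nor whether strand was used. Per the file headers, the authors deposited FPKM values, which hold no read counts, so depth is unknown, and an abundant transcript takes from the values of all others.

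Inhibitor and control were compared on log2(FPKM + 1) with limma 3.58.1 in R 4.3.3 (lmFit, eBayes with a trend, two-sided) over the 12345 rows whose mean reached 1 FPKM, with Benjamini-Hochberg adjustment over all of them and a threshold of 0.05. Fold changes on this scale understate those of low genes. Standard errors are limma's moderated ones, with 5.29 degrees of freedom, of which 2 are residual, and the 95% intervals are not adjusted. The spread is between 2 pools per group. The members and the gene lists were chosen with earlier results of these data known, and the scaling to adipocyte markers was added after the values were seen. The text names all members, and from each list of other pathway genes up to 4 with the smallest p. Pparg and the marker genes outside that rule were named with their values known. The pipeline was tested on simulated data, where it recovered 63.6% of log2 changes of 0.5 and 98.4% of log2 changes of 1. The simulated spread followed a smooth trend over mean level, so genes with a wider spread between libraries were not represented. Coordinates and overlaps come from GENCODE M21 (GRCm38, the build of mm10), which matched 21647 of 21849 identifiers, and miRNA and promoter sequences from RefSeq (GRCm38.p6).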

Additional observations from a re-analysis of the deposited data

How the results depend on the processing

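Among the 31 genes 28 were negative, or 27 of the 29 left at 5 FPKM, in every alternative with all 4 libraries other than the scaling to adipocyte markers. Calls over all genes were 397 higher and 33 lower. They became 122 and 10 without a filter, 215 and 11 without a trend, 66 lower with a filter at 5 FPKM, 92 lower with quantile normalization, 64 lower with upper quartile scaling, 54 lower without the genes of mitochondrial DNA and 21 lower with a replicate block. The share of calls that were higher went from 92.3% to 78% with quantile normalization and 80.7% with upper quartile scaling, where the median of all genes was -0.0333 and -0.0447. Scaling to adipocyte markers gave 2225 calls higher. Leaving out each library in turn gave 0 to 687 higher and 0 to 98 lower, with 0 without inhibitor 1 and without inhibitor 2, where the spread came from the controls alone.

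Of the members, 0 were called lower. This became 2 with the filter at 5 FPKM, 3 with quantile normalization, 1 without mitochondrial genes and 0 to 12 when libraries were left out, and 2 were called higher with scaling to adipocyte markers. Of the other pathway genes 1 was called lower with the filter at 5 FPKM, against 0.72% of all genes, and 1 with quantile normalization, against 0.745%. With scaling to adipocyte markers 7 were called higher, against 18% of all genes. The replicate block left 0 members called, with a smallest adjusted p of 0.0720. The differences of replicate 2 from replicate 1 in each group correlated at Pearson's r = -0.00581 over 12345 genes and 0.596 over the 31 members, as a description. The labels do not tie the numbers to a shared source, so the libraries were not taken as pairs. At an unadjusted p under 0.05, 18 members were lower with the block, against 5.75% of all genes. Without the block 14 were lower, against 5.95%.

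Signs turned without control 2 for Acss2, Scd2, Fads2 and G6pdx, without inhibitor 1 for Agpat3 and without inhibitor 2 for Fads2. With each library left out in turn, log2 fold changes ran from -0.87 to 0.15 for Acss2, -0.50 to 0.0385 for Scd2, -0.25 to 0.13 for Fads2, -0.0959 to 0.0115 for Agpat3 and -0.22 to 0.0603 for G6pdx. With scaling to adipocyte markers they turned for Srebf1 (0.0165), Scd2 (0.0775), Scd3 (0.19), Fads1 (0.16), Fads2 (0.22), Fads3 (0.0611), Agpat3 (0.27), G6pdx (0.23) and the median of the desaturases (0.12). The cause of these changes was not tested. The number of pools limits the precision, and the depth behind each value is unknown.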
